A study of Drosophila melanogaster with 12 samples.

Results

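Cytosolic ribosomal protein genes code for the protein parts of the small (40S) and large (60S) subunits of the ribosome. They were taken from the deposited table by FlyBase symbol: RpL or RpS followed by a digit, or RpLP0, RpLP1, RpLP2 or sta. This gave 92 of 13777 genes, 39 for the 40S and 53 for the 60S subunit. Of these, 70 carry a plain symbol and are called main genes here (26 of the 40S, 44 of the 60S). The other 22 carry a suffix (a, b, -like, -1 or -2) that sets apart copies of the same protein or its relatives. Several suffix genes proved to be the abundant copy in these cells, so a suffix did not mark a testis-type gene as such. Transcript 3' ends had been sequenced from total RNA of S2R+, a long-established embryonic cell line of Drosophila melanogaster that resembles hemocytes. The 4 groups of 2 libraries were cells that received no treatment and cells transfected to overexpress ElavWT, FneWT or Rbp9WT. These are the wild-type forms of the fly ELAV/Hu proteins, RNA-binding proteins found mainly in neurons. All groups share the same line and culture medium. The transfection reagent was Effectene, and the labels do not state whether the untreated cells were mock transfected, so protein and transfection cannot be told apart in any comparison with untreated cells.

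Each ribosome holds a copy of most ribosomal proteins, and growing cells make these proteins in large and matched amounts. Their mRNAs are short and among the most abundant of a cell. In Drosophila most of their genes start transcription at a pyrimidine-rich TCT initiator, and loss of a single copy of many of them gives the Minute phenotype of slow development and thin bristles. Target of rapamycin (TOR) signalling and Myc are known to raise ribosome production.

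The libraries held 4694825 to 14391952 reads, and 3 reads were worth 0.208 to 0.639 CPM. Values are deposited CPM, the reads of a gene scaled to a common total per library, and each transcript gives reads from its 3' end, so levels were not divided by length. Values of replicate 1 are given before those of replicate 2, and "with Elav", "with Fne" and "with Rbp9" stand for ElavWT, FneWT and Rbp9WT. Nothing in the labels says that libraries came from separate cultures, so a p-value takes in just the spread among these samples. Same-numbered libraries deviated together from their group means (r of 0.55 to 0.869 over all genes in the 6 pairs of groups), and what a number shares is not stated. Replicates 1 and 2 stood apart in several ways that go with the results below, and the part of these differences in the results was not tested. The 11 rRNA-named genes took 2.91% and 20.1% of reads untreated, 5.91% and 18.0% with Elav, 3.77% and 24.8% with Fne, and 4.75% and 15.4% with Rbp9. Rbp9 measured 3.34 and 2.35 CPM untreated, 6.20 and 2.34 with Elav, 7.46 and 2.55 with Fne, and 713 and 58.8 with Rbp9. fne measured 6.67 and 1.91 CPM untreated, 49.8 and 4.47 with Elav, 97.4 and 48.0 with Fne, and 115 and 2.79 with Rbp9, so it was high in every transfected replicate 1 and in replicate 2 of FneWT. elav measured 24.9 and 37.3 CPM untreated, 29.2 and 26.6 with Elav, 42.7 and 59.7 with Fne, and 33.3 and 32.7 with Rbp9, with no excess in ElavWT, and the sources used here do not say whether the construct carries the sequence counted for elav. Of 11 hemocyte markers 10 had reads in untreated cells (NimC1 was at 0), and their summed level was 956 to 2195 CPM over the libraries. The largest part of each sum was SPARC, at 1133 and 428 CPM in untreated cells. Other hemocyte markers were low there, Hml at 0.417 and 1.91 CPM and eater at 4.03 and 13.7 CPM. Summed neuron markers were at 134 and 87.5 CPM in untreated cells and at 104 to 310 in transfected ones, where the highest values were those of replicate 1. The largest part of each sum was para. The marker nSyb went the other way in replicate 1, at 34.7 CPM untreated and 13.4, 21.2 and 12.2 with Elav, Fne and Rbp9. In replicate 2 nSyb was at 1.32 CPM untreated and 2.13 to 4.37 in transfected cells. Summed muscle markers were at 7.50 and 1.03 CPM in untreated cells, at 27.5 to 34.5 in transfected replicates 1 and at 1.59 to 3.82 in transfected replicates 2. Fat body markers summed to at most 0.571 CPM and testis germline markers to 7.28 to 25.2 CPM, mostly from mia, while aly and can were at 0 in untreated cells.

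Ribosomal protein mRNAs took a large share of the reads, which was lower after transfection in replicate 1. The 92 genes took 23.7% and 24.8% of all reads untreated, 11.6% and 24.2% with Elav, 9.80% and 20.3% with Fne, and 9.01% and 21.8% with Rbp9. The transfected replicates 1 were thus far below every other library, while the transfected replicates 2 were below both untreated libraries in FneWT and Rbp9WT and between them in ElavWT. The half-width of a 95% Wilson interval was at most 0.0387 percentage points, which covers counting error only. As group means the shares were 24.3% ± 0.775 (SD, n = 2) in untreated cells, 17.9% ± 8.90 in ElavWT, 15.0% ± 7.40 in FneWT and 15.4% ± 9.07 in Rbp9WT, and the SD was above the distance from untreated cells in ElavWT and Rbp9WT and somewhat below it in FneWT. Set against the untreated library of the same number, the share was 48.9% and 97.4% with Elav, 41.3% and 81.6% with Fne, and 38.0% and 88.0% with Rbp9. With the rRNA-named genes taken out of the totals these values became 50.5% and 94.9%, 41.7% and 86.7%, and 38.7% and 83.0%. The shares themselves were then 24.4% and 31.1% untreated, 12.3% and 29.5% with Elav, 10.2% and 26.9% with Fne, and 9.46% and 25.8% with Rbp9. On that scale the untreated libraries lay farther apart, and all 3 transfected replicates 2 lay between them. Among the 100 most abundant genes of a library, 51 and 56 were ribosomal protein genes when untreated, 36 and 55 with Elav, 32 and 51 with Fne, and 27 and 53 with Rbp9. In bulk RNA of this kind, fewer cells of a type and less RNA per cell cannot be told apart, and a share of reads does not measure RNA per cell.

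**Figure D1:**
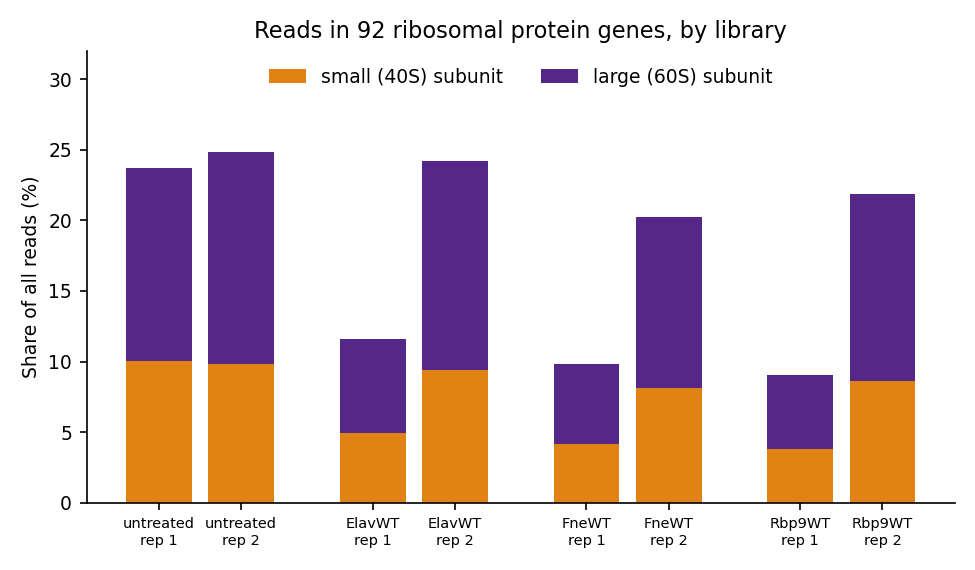
Share of all reads (%, vertical axis) in the 92 ribosomal protein genes for each of the 8 libraries, split into 40S (orange) and 60S (purple) genes. The 3 transfected replicates 1 reach 9.01% to 11.6%, and the other 5 libraries 20.3% to 24.8%.

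Levels of the 70 main genes spread widely around medians of 2097 and 2458 CPM untreated, 1032 and 2274 with Elav, 893 and 1977 with Fne, and 870.4 and 2079 with Rbp9. RpS3, a 40S protein at the mRNA entry channel, was the highest main gene by its untreated mean, at 19299.5 and 7663 CPM untreated, 8991 and 8732 with Elav, 8638 and 5339 with Fne, and 7565 and 8191 with Rbp9. It was the highest main gene in all 4 replicates 1, and RpL23 in all 4 replicates 2, so the leading gene followed the replicate number and not the transfection. RpL23 of the 60S subunit measured 8544 and 11999 CPM untreated, 4552 and 13551 with Elav, 3004 and 8885 with Fne, and 2826 and 11399 with Rbp9. The next by untreated mean were RpLP2 at 11284 and 7866 CPM, RpL5 at 5978 and 10812 CPM and RpL10 at 9036 and 7338 CPM. RpLP2 belongs to the stalk that engages translation factors, RpL5 binds 5S rRNA, and RpL10 joins the large subunit late in its assembly. Among the lowest main genes were RpL28 at 257 and 552 CPM, RpS24 at 252 and 574 CPM, RpS6 at 273 and 736 CPM and RpS21 at 827 and 545 CPM. The untreated libraries of neighbours overlap within both sets, and the SD of RpS3 was 8229 CPM around a mean of 13481. The fold between the highest and the lowest main gene was 64.4 to 76.5 in the replicates 1 and 19.2 to 37.9 in the replicates 2.

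Relative to untreated cells, the main genes lay low in all 3 transfected groups, and mostly in replicate 1. Changes are differences in log2(CPM + 1), a scale that hardly compresses genes at these levels. In replicate 1, 69 of 70 main genes were below the untreated library with ElavWT, 70 with FneWT and 70 with Rbp9WT. In replicate 2 these numbers were 45, 58 and 63. Medians over the 70 genes were -0.95 and -0.07 with Elav, -1.26 and -0.28 with Fne, and -1.38 and -0.21 with Rbp9, where all 9114 tested genes had medians of 0.39 and 0.08, 0.51 and 0.05, and 0.52 and 0.31. The main genes thus lay below the median gene in every pair of libraries, by little in replicate 2 of ElavWT. Fitted on both replicates, their median change less that of all tested genes was -0.78 in ElavWT, -1.08 in FneWT and -1.23 in Rbp9WT. Without replicate 1 of the transfected group these medians were 0.04, -0.10 and -0.32, and without its replicate 2 they were -1.69, -2.06 and -2.14. The 3 comparisons share the untreated libraries, so they are not independent of each other.

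**Figure D2:**
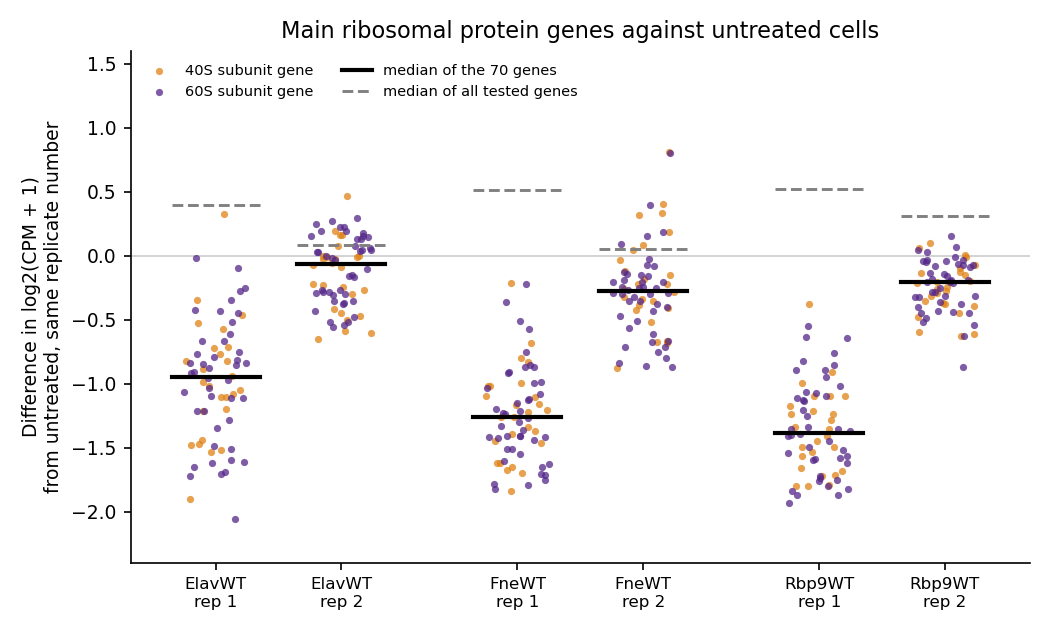
Difference in log2(CPM + 1) of the 70 main ribosomal protein genes from the untreated library of the same replicate number (vertical axis), by transfected library, with 40S genes in orange and 60S genes in purple. Solid bars are the medians of the 70 genes, from -1.38 to -0.07, and dashed bars those of all tested genes, from 0.05 to 0.52.

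With group as the only term, no ribosomal protein gene passed a Benjamini-Hochberg adjusted p of 0.05 in limma in any of the 3 comparisons, where 0.0% of all genes passed in either direction. At an unadjusted p under 0.05 this fit gave 1 ribosomal protein gene in ElavWT (RpS21), 2 in FneWT (RpL36 and RpS28-like) and 1 in Rbp9WT (RpS12), against 4.87%, 7.43% and 7.31% of all genes. RpS28-like had no reads in untreated cells and passed the filter on low values through the transfected libraries alone, so its calls were favoured by that filter. edgeR without the replicate number passed none either, nor any other gene. DESeq2 without it passed RpS28-like in FneWT, as higher, and none lower, where it called 2.73%, 4.37% and 2.76% of all genes higher in the 3 comparisons and 0.154%, 0.417% and 0.154% lower. With the replicate number as a further term, limma called 1 of the 87 tested ribosomal protein genes lower in ElavWT, where it called 1.09% of all genes lower. It called 8 lower in FneWT (9.2% of them, against 1.94% of all genes) and 12 lower in Rbp9WT (13.8%, against 0.735%). In the other direction it called none in ElavWT, RpS28-like in FneWT and none in Rbp9WT, while 9.02%, 15.1% and 17.7% of all genes were called higher. At an unadjusted p under 0.05 the same fit gave RpS28-like as the only higher gene in each comparison, against 19.7%, 26.1% and 29.6% of all genes. These counts depended on the tool and on single libraries. For fits without a transfected library the share of all genes called is not given. Counts from those fits thus cannot be read as particular to ribosomal protein genes. edgeR with the replicate number called 8, 41 and 54 lower (5.73%, 10.2% and 8.72% of all genes), and DESeq2 33, 68 and 79 (4.17%, 8.25% and 7.22%). Both called RpS28-like higher in each comparison, against 11.1%, 15.7% and 13.7% of all genes in edgeR and 10.7%, 14.5% and 13.2% in DESeq2. With levels scaled by the median of gene ratios, limma called 2, 21 and 38 lower (2.9%, 6.65% and 4.98%). Without untreated replicate 1 limma with the replicate number called none lower in any comparison (0.207%, 0.228% and 0.185% of all genes lower), and without untreated replicate 2 it called 59, 73 and 72 lower (5.09%, 6.63% and 3.93%). In ElavWT the count was 1 without ElavWT replicate 2 and 0 without any other single transfected library. Leaving out either library of the transfected group itself gave 0 calls in FneWT and in Rbp9WT, leaving out either Rbp9WT library gave 4 in FneWT, and leaving out either FneWT library gave 2 in Rbp9WT.

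Counted without a test, 20 of 87 genes in ElavWT, 43 in FneWT and 43 in Rbp9WT had both libraries below both untreated ones, where 7.33%, 8.06% and 5.98% of all tested genes did. Those lower in both same-numbered pairs were 52, 70 and 74 of 87, against 19.8%, 23.8% and 14.9% of all genes. Below the median gene in both pairs were 62, 72 and 84, against 31.1%, 36.2% and 35.1%.

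Named genes are given with their change less the median gene of the comparison (a shift of 0.25 with Elav, 0.28 with Fne and 0.42 with Rbp9), the standard error of the limma fit with the replicate number, and the adjusted p of the unshifted change in that fit. Coordinates are those of the BDGP6 (dm6) annotation. In ElavWT the gene that fell was RpL37A, a zinc-binding 60S protein (chromosome 2L, 5070957 to 5072055, plus strand). It measured 1509 and 1182 CPM untreated, 456 and 826 with Elav, 438 and 1027 with Fne, and 395 and 765 with Rbp9. All 6 transfected libraries were below both untreated ones. Its change was -1.37 ± 0.36, adjusted p = 0.0494 in ElavWT and -1.69 ± 0.36, adjusted p = 0.0154 in Rbp9WT, where it was also called, and -1.27 ± 0.36, adjusted p = 0.061 in FneWT, where it was not. The asRNA:CR45305 gene lies on the opposite strand of RpL37A, and the sources used here do not say whether counting used strand. RpS21 and RpL38 followed in ElavWT at -1.29 ± 0.34, adjusted p = 0.0539 and -1.26 ± 0.41, adjusted p = 0.127, neither of which passed in that fit. RpS21 was called lower in ElavWT by edgeR with the replicate number, where 5.73% of all genes were. Limma with that number under median-ratio scaling also called it lower, where 2.9% of all genes were. Neither of these fits called RpL38.

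In FneWT the largest fall was that of RpS29, a small zinc-binding protein of the 40S subunit (chromosome 3R, 9778042 to 9779528, plus strand). It measured 1719 and 1609.7 CPM untreated, 631 and 1580.5 with Elav, 479.5 and 877 with Fne, and 542 and 1242 with Rbp9. All transfected libraries were below both untreated ones, ElavWT replicate 2 by a narrow margin. The change in FneWT was -1.64 ± 0.36, adjusted p = 0.0117, and in ElavWT and Rbp9WT it was -0.98 ± 0.36, adjusted p = 0.217 and -1.43 ± 0.36, adjusted p = 0.0524, which did not pass. RpL36 of the 60S subunit (chromosome X, 628338 to 629483, minus strand) stood at 2101 and 1373 CPM untreated, 694 and 1414 with Elav, 607 and 787 with Fne, and 592 and 1070.3 with Rbp9. Every transfected library but ElavWT replicate 2 was below both untreated ones. RpL36 fell in FneWT (-1.58 ± 0.38, adjusted p = 0.0187) and Rbp9WT (-1.51 ± 0.38, adjusted p = 0.0436). RpS30 of the 40S subunit (chromosome 3R, 20850516 to 20851427, plus strand) measured 1270.2 and 1242 CPM untreated, 442 and 893 with Elav, 413 and 925 with Fne, and 364 and 821 with Rbp9. It was called in FneWT (-1.30 ± 0.35, adjusted p = 0.0449) and in Rbp9WT (-1.61 ± 0.35, adjusted p = 0.0181), and all 6 transfected libraries were below both untreated ones. RpL29 (-1.43 ± 0.35, adjusted p = 0.0262) and RpL17 (-1.34 ± 0.36, adjusted p = 0.0438), both of the 60S subunit, were called in FneWT alone. RpL29 measured 1019 and 978 CPM untreated, 417 and 995 with Elav, 379 and 535 with Fne, and 354 and 862 with Rbp9, with both FneWT libraries below both untreated ones. RpL17, at the exit of the peptide tunnel, measured 949 and 3897 CPM untreated, 596 and 2996 with Elav, 310.4 and 2730.3 with Fne, and 365 and 2859.5 with Rbp9. It was far higher in replicate 2 of every group, so its FneWT and untreated libraries overlap and the call rests on the same-numbered pairs. RpL34b measured 3862 and 3227 CPM untreated, 1318 and 2909.6 with Elav, 1239.5 and 2104 with Fne, and 1019 and 2344 with Rbp9. RpS10b measured 2677 and 2501 CPM untreated, 878 and 2162 with Elav, 782 and 1856 with Fne, and 811 and 1831 with Rbp9. In both genes all 6 transfected libraries were below both untreated ones. RpL34b and RpS10b, the abundant copies of their proteins, were called in FneWT (-1.41 ± 0.39, adjusted p = 0.0498 and -1.38 ± 0.38, adjusted p = 0.0482) and in Rbp9WT (-1.61 ± 0.39, adjusted p = 0.0362 and -1.50 ± 0.38, adjusted p = 0.0488). The genes CG14220 and asRNA:CR31514 lie opposite RpS10b and RpS29, and CG9752 opposite RpL29. Passing in one comparison and not in another does not show a difference, and the differences between proteins were tested separately.

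**Figure D3:**
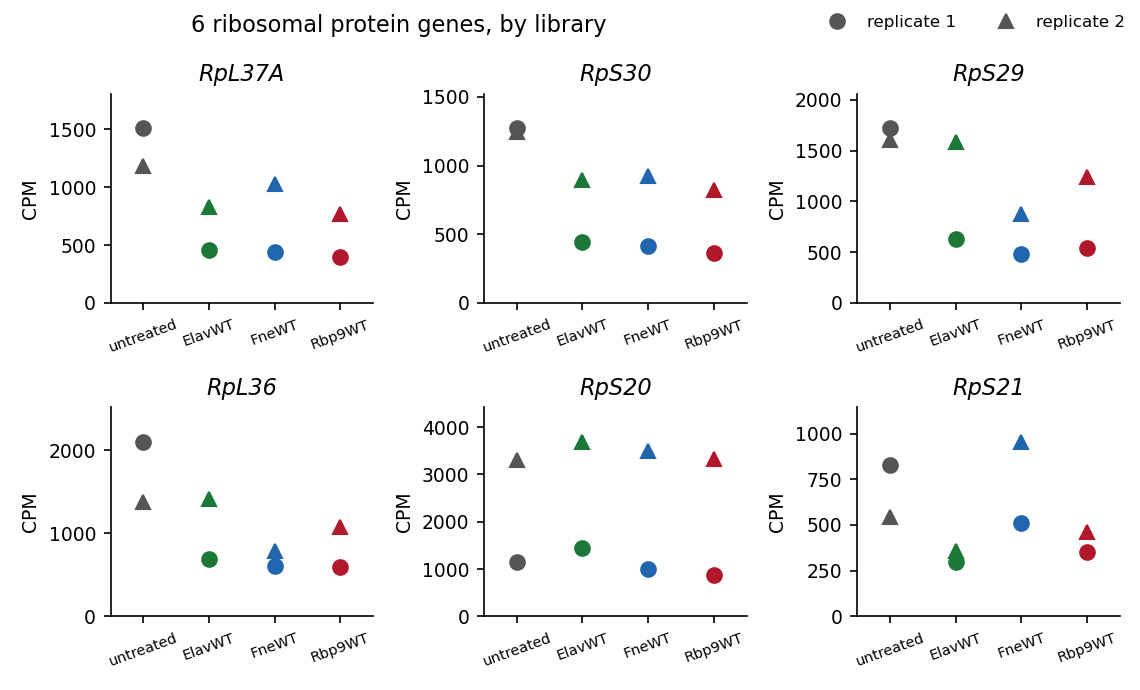
CPM (vertical axis, from 0) of RpL37A, RpS30, RpS29, RpL36, RpS20 and RpS21 in the 8 libraries, with circles for replicate 1 and triangles for replicate 2. RpL37A, RpS30 and RpS29 lie lower in every transfected library than in both untreated ones, RpS20 does not, and RpS21 is lowest in ElavWT.

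Rbp9WT had the most called genes. Beside RpL37A, RpS30, RpL34b, RpL36 and RpS10b, they included the 40S genes RpS12 and sta and the 60S genes RpL30, RpL7A and RpL32. RpS12, which in flies is needed for the elimination of Minute cells by their neighbours, measured 1868 and 1194 CPM untreated, 803 and 1024 with Elav, 711 and 1022 with Fne, and 536 and 856 with Rbp9, and its change was -1.55 ± 0.36, adjusted p = 0.0283. Both Rbp9WT libraries of RpS12 were below both untreated libraries. sta, the fly form of the laminin receptor protein of the 40S subunit, measured 865 and 4054 CPM untreated, 524 and 2694 with Elav, 401 and 3174 with Fne, and 297 and 2625 with Rbp9. It was far higher in replicate 2 than in replicate 1 of every group, so the Rbp9WT and untreated libraries overlap, and its change of -1.50 ± 0.35, adjusted p = 0.0346 rests on the same-numbered pairs. RpL30 (-1.54 ± 0.37, adjusted p = 0.0331), RpL7A (-1.51 ± 0.38, adjusted p = 0.0436) and RpL32 (-1.48 ± 0.36, adjusted p = 0.0405) were close in size. RpL30 measured 1282 and 1299 CPM untreated, 415 and 1047 with Elav, 408 and 1125 with Fne, and 351 and 996 with Rbp9. RpL7A measured 1635 and 1713 CPM untreated, 574 and 1404 with Elav, 460.1 and 1395 with Fne, and 446 and 1378 with Rbp9. All 6 transfected libraries of these genes were below both untreated ones. RpL32, in wide use as a reference gene in fly expression studies, measured 1725 and 2083 CPM untreated, 615 and 1542 with Elav, 646 and 1694 with Fne, and 576 and 1428 with Rbp9, again with every transfected library below both untreated ones. CG31793 lies on the opposite strand of RpL30, while RpS12, sta, RpL7A and RpL32 overlap no other annotated gene.

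Some main genes lay less far below the median gene than most, though still by 0.60 or more in Rbp9WT. RpS20 of the 40S head measured 1151 and 3304 CPM untreated, 1440.5 and 3686 with Elav, 990.5 and 3501 with Fne, and 884 and 3321 with Rbp9, so its untreated and transfected libraries overlap in all 3 groups. Its change was -0.01 ± 0.36, adjusted p = 0.711 in ElavWT, -0.35 ± 0.36, adjusted p = 0.921 in FneWT and -0.60 ± 0.36, adjusted p = 0.757 in Rbp9WT. RpL12, of the stalk base, and RpL15 were also among the least changed in ElavWT, at -0.28 ± 0.39, adjusted p = 0.97 and -0.34 ± 0.38, adjusted p = 0.905, and in Rbp9WT, at -0.70 ± 0.39, adjusted p = 0.648 and -0.77 ± 0.38, adjusted p = 0.55. RpL12 measured 4181 and 4574 CPM untreated, 3502 and 5232 with Elav, 2928 and 3857 with Fne, and 2687 and 4789 with Rbp9, and RpL15 measured 2193 and 3042 CPM untreated, 1631 and 3606 with Elav, 1300.3 and 3389 with Fne, and 1213 and 3381 with Rbp9. Transfected and untreated libraries overlap in both genes, except that the FneWT libraries of RpL12 were below both untreated ones. The annotated ends of RpL12 and RpL39 overlap on opposite strands, and CG17272 lies opposite RpS20. RpL28 measured 257 and 552 CPM untreated, 240.5 and 492 with Elav, 135 and 964 with Fne, and 118 and 483 with Rbp9. Its change in FneWT was -0.34 ± 0.37, adjusted p = 0.933, which averages a fall in replicate 1 and a rise in replicate 2. RpS21 was the main gene least below the median gene in FneWT, at -0.22 ± 0.34, adjusted p = 0.923. It too was lower than untreated in replicate 1 and higher in replicate 2. No main gene was above both untreated libraries in both libraries of any transfected group, while 23.0%, 25.3% and 33.5% of all tested genes were.

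The stalk proteins RpLP0, RpLP1 and RpLP2 recruit and activate the GTPases of translation. RpLP0 measured 1152 and 2422 CPM untreated, 642 and 1876 with Elav, 631 and 1330.1 with Fne, and 652 and 2094 with Rbp9. RpLP1 measured 1403 and 5199 CPM untreated, 1103 and 4665 with Elav, 664 and 6849 with Fne, and 669.7 and 5087 with Rbp9, and RpLP2 11284 and 7866 CPM untreated, 5228 and 8596 with Elav, 4488 and 4389 with Fne, and 4009.6 and 7801 with Rbp9. RpLP2 was below both untreated libraries in every transfected library but ElavWT replicate 2, while RpLP0 and RpLP1 overlapped with untreated cells in every transfected group. In Rbp9WT their changes were -0.93 ± 0.35, adjusted p = 0.313, -0.96 ± 0.40, adjusted p = 0.359 and -1.17 ± 0.44, adjusted p = 0.245, and none passed in any group. RpS27A and RpL40 are made as fusions with ubiquitin, which is cut off the ribosomal protein. RpS27A measured 2879.7 and 1863 CPM untreated, 1033 and 1545 with Elav, 918 and 1821 with Fne, and 896 and 1498 with Rbp9, and RpL40 measured 671 and 1937 CPM untreated, 491 and 1570.2 with Elav, 366 and 1745 with Fne, and 395 and 1435 with Rbp9. Every transfected library of RpS27A was below both untreated ones, and those of RpL40 overlapped with them. Neither passed, with changes in Rbp9WT of -1.41 ± 0.39, adjusted p = 0.0722 and -1.01 ± 0.33, adjusted p = 0.224, and Ip259 overlaps RpS27A on the same strand. RpS6, the 40S protein phosphorylated by S6 kinase, measured 273 and 736 CPM untreated, 166 and 729 with Elav, 121 and 928 with Fne, and 127 and 637 with Rbp9. It was higher in replicate 2 than in replicate 1 of every group, and its changes were -0.61 ± 0.33, adjusted p = 0.522, -0.70 ± 0.33, adjusted p = 0.406 and -1.07 ± 0.33, adjusted p = 0.181 in ElavWT, FneWT and Rbp9WT, none of which passed.

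Medians of both subunits were low. Median unshifted changes of 40S and 60S main genes were -0.65 and -0.49 with Elav, -0.73 and -0.80 with Fne, and -0.82 and -0.80 with Rbp9. Summed 60S over summed 40S reads gave ratios of 1.37, 1.35, 1.34 and 1.35 in replicates 1 of untreated, ElavWT, FneWT and Rbp9WT, and of 1.53, 1.58, 1.50 and 1.53 in replicates 2. The balance between subunits thus differed more between replicate numbers than between groups.

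Because the replicates of transfected cells were so unlike, the 3 transfected libraries of each number were set against the untreated library of that number, a comparison chosen after seeing that the transfected replicates 1 were low. It uses the 3 proteins as replicates and assumes that the lone untreated library varies like them, so its counts describe the libraries that prompted it and are no independent support. In replicate 1 limma called 67 of 87 ribosomal protein genes lower (56 of 70 main genes), against 3.84% of all genes, and none higher, against 25.5%. At an unadjusted p under 0.05 RpS28-like was the only higher gene there, against 34.8% of all genes. In replicate 2 it called none lower or higher, against 0.0219% and 1.1% of all genes, and an unadjusted p under 0.05 gave 1 lower (RpL3) and 2 higher, RpS28-like among them. These are 1.15% and 2.3% of those tested, against 0.922% and 9.15% of all genes, so the lower count is near that of all genes. Medians over the main genes were -1.17 and -0.21, where all genes had 0.47 and 0.14. In replicate 1 RpL38, a small 60S protein, was lowest at -1.86 ± 0.27, then RpL37A at -1.81 ± 0.27, both unshifted. RpL38 measured 3097 and 1593 CPM untreated, 743 and 1635 with Elav, 918 and 1346 with Fne, and 913 and 1389 with Rbp9, so its transfected replicates 1 were far below and its replicates 2 near the untreated library. The main genes not called lower in replicate 1 included RpL3, RpL12, RpL15, RpL18, RpL22, RpL24, RpL28, RpL40, RpLP0, RpLP1, RpS13, RpS20 and RpS21. The difference between the 2 numbers was called for no ribosomal protein gene in limma (lowest adjusted p = 0.162, for RpL38), where 0.0878% of all genes were called lower and 0.0329% higher in replicate 1 than in replicate 2. At an unadjusted p under 0.05 it gave 51 with a deeper fall in replicate 1, against 1.96% of all genes. Scaling by the median of gene ratios gave 78 lower in replicate 1, where it called 12.1% of all genes lower, and leaving out the rRNA-named genes gave 67, against 3.95%. In replicate 2 both gave 0 in either direction, against 0.0555% and 0.0109% of all genes lower and 1.11% and 1.15% higher.

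Between replicate numbers, ribosomal protein genes differed from each other in a pattern that untreated cells also showed. Over the 85 genes of at least 10 CPM in untreated cells, the median difference of replicate 2 less replicate 1 was 0.13 in untreated cells, 1.13 in ElavWT, 1.09 in FneWT and 1.19 in Rbp9WT, while all tested genes had -0.34, -0.63, -0.80 and -0.50. Higher in replicate 2 were 47 of them in untreated cells and 79, 75 and 82 in the transfected groups. In untreated cells the difference ran from -1.71 for RpL39, -1.58 for RpL27A, -1.39 for RpL35A and -1.33 for RpS3 to 2.23 for sta, 2.46 for RpL22 and 2.52 for RpL3. RpL3, near the peptidyl transferase centre, measured 428 and 2457 CPM untreated, 354 and 1686 with Elav, 332 and 1495 with Fne, and 292 and 1718 with Rbp9. It was higher in replicate 2 of every group. RpL39, among the smallest ribosomal proteins, measured 3304 and 1008 CPM untreated, 1010.1 and 1120.2 with Elav, 1237 and 788 with Fne, and 947 and 947 with Rbp9, and was far lower in replicate 2 of untreated cells. Gene by gene, the untreated difference and the mean of the transfected differences correlated at r = 0.91 (rho = 0.888, across 85 genes, which share their libraries and are not independent). This is a description of the libraries, and the difference between numbers had little relation to annotated transcript length (r of 0.19 to 0.29 over the groups).

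**Figure D4:**
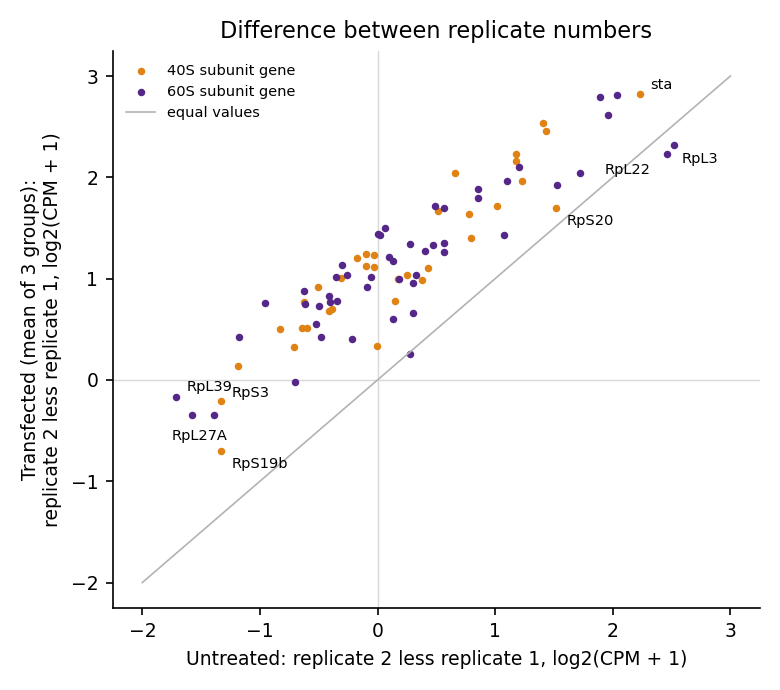
Difference of replicate 2 less replicate 1 in log2(CPM + 1) for 85 ribosomal protein genes, in untreated cells (horizontal axis) and as the mean of the 3 transfected groups (vertical axis), with 40S genes in orange and 60S genes in purple. Most points lie along a band above the line of equal values, with RpL39 and RpL27A at its left end. RpL3 and RpL22, farthest to the right, lie just below that line.

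Between the proteins, no ribosomal protein gene was called by limma, edgeR or DESeq2, with or without the replicate number. In FneWT against ElavWT limma with that number called 0.165% of all genes higher and 0.011% lower, in Rbp9WT against ElavWT 0.56% and 0.0329%, and in Rbp9WT against FneWT 0.0% both ways. Unadjusted p under 0.05 in that fit gave RpS21 alone (1.15% of those tested), higher in FneWT than in ElavWT, where 5.54% of all genes were higher, and lower in Rbp9WT than in FneWT, where 1.13% were lower. The share was below that of all genes in FneWT against ElavWT and near it in Rbp9WT against FneWT. It gave none in Rbp9WT against ElavWT, against 9.78% of all genes higher and 1.26% lower. RpS21, a 40S protein that in flies is known to bind sta, measured 827 and 545 CPM untreated, 297 and 358 with Elav, 513 and 955 with Fne, and 350.2 and 459 with Rbp9. It was lowest in ElavWT, and its FneWT libraries lay on either side of the untreated range, with no overlap between ElavWT and FneWT. Its log2 difference of FneWT from ElavWT was 1.06 ± 0.34 after the median gene, with an adjusted p of 0.281 in limma with the replicate number. Without either untreated library that fit called RpS21 higher in FneWT, where it called 1.2% of all genes higher. The median main gene less the median of all genes was -0.25 in FneWT against ElavWT, -0.40 in Rbp9WT against ElavWT and -0.13 in Rbp9WT against FneWT. In same-numbered pairs it was -0.38 and -0.15, -0.44 and -0.36, and -0.07 and -0.21, negative in each pair. These medians were not tested. With group as the only term the sign of each turned when a single library was left out, which sets unequal replicate numbers against each other.

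The 22 suffix genes fell into 3 ranges of level in untreated cells. The 9 above 1000 CPM included RpS28b, RpL34b, RpS19a, RpS15Aa, RpL37-1, RpS10b, RpS14a and RpL10Ab, each the abundant copy of its protein. From 10 to 1000 CPM were RpS15Ab, RpS14b, RpL24-like, RpL34a, RpL7-like and RpS19b. The 7 below 10 CPM included RpL22-like, RpS10a, RpL10Aa, RpS28-like, RpL37-2 and RpS28a. Of the 22, 17 had a mean of at least 1 CPM and were tested, and RpL10Aa, RpL22-like, RpL37-2, RpS10a and RpS28a were not. Among the abundant copies, RpS28b was highest at 8452 and 4751 CPM untreated, 3466 and 5555 with Elav, 3122 and 3631 with Fne, and 3189 and 4834 with Rbp9. RpS15Aa measured 3187 and 2246 CPM untreated, 1063 and 2313 with Elav, 988 and 1545 with Fne, and 915 and 1812 with Rbp9, and its change in FneWT (-1.39 ± 0.39, adjusted p = 0.0513) was just short of the threshold. Other abundant copies were RpL37-1 at 2506 and 2753 CPM in untreated cells, RpS14a at 1529 and 3084 CPM and RpL10Ab at 1377 and 1726 CPM, none of which passed in any comparison. At the other end RpL37-2 and RpS28a had reads in a single library, Rbp9WT replicate 1, at 0.342 CPM each, which is 3 reads. RpS10a and RpL10Aa were at most at 0.398 and 0.987 CPM. Suffix genes gave 10.1% to 12.9% of the ribosomal protein reads of a library. RpL22-like, known as a testis-enriched partner of RpL22, measured 0.278 and 0 CPM untreated, 1.27 and 0 with Elav, 0.497 and 0.182 with Fne, and 0.799 and 0 with Rbp9. These are a few reads per library, and RpL22 itself measured 354 and 1957 CPM untreated, 349 and 1369 with Elav, 304 and 1717 with Fne, and 226 and 1072 with Rbp9. RpS19b, known from the fly germline, measured 35.5 and 13.5 CPM untreated, 33.1 and 15.8 with Elav, 23.9 and 14.2 with Fne, and 26.1 and 19.9 with Rbp9, against 3523 and 2649 CPM untreated, 1481 and 1982 with Elav, 1277 and 2129 with Fne, and 1221 and 2249 with Rbp9 for RpS19a.

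**Figure D5:**
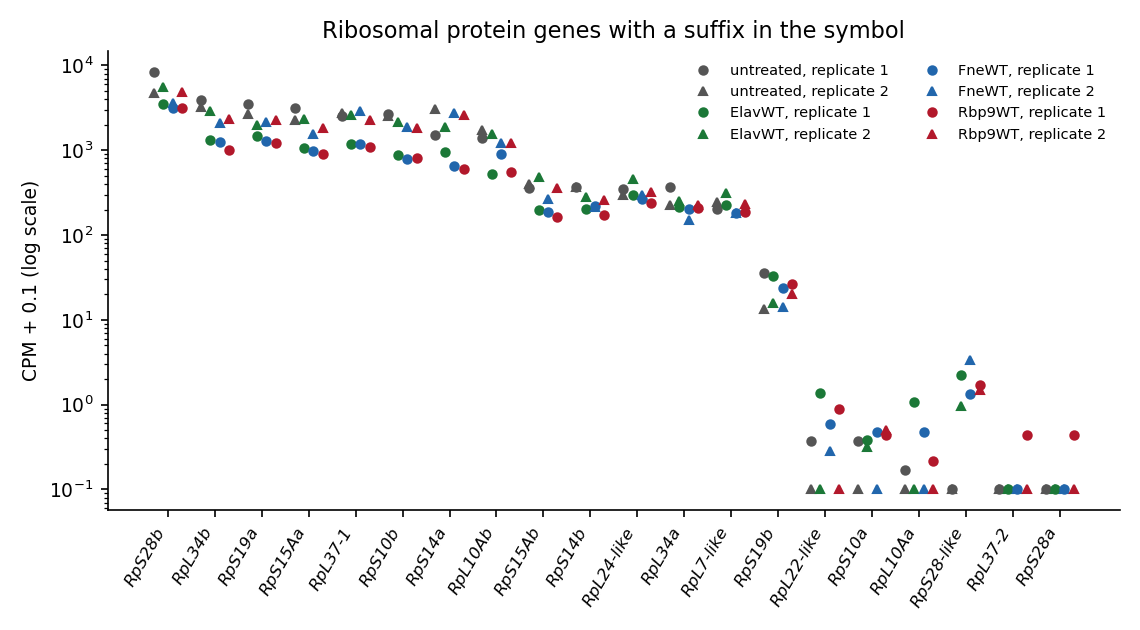
CPM + 0.1 (vertical axis, log scale) of the suffix genes named in the text, ordered by untreated mean, with a colour per group, circles for replicate 1 and triangles for replicate 2. The abundant copies lie above 1000 CPM in untreated cells, and the genes at the right lie below 10.

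Where both copies were expressed, their balance was compared. RpL34a gave 8.62% and 6.47% of RpL34a and RpL34b reads untreated, 14.0% and 7.91% with Elav, 13.9% and 6.69% with Fne, and 17.1% and 8.85% with Rbp9. The minor copy had a larger share in each transfected library than in the untreated library of the same number, but the 95% Wilson intervals of replicate 2 overlap between FneWT (6.26% to 7.14%) and untreated cells (6.16% to 6.79%). These intervals cover counting error only, and that of untreated replicate 1 (8.40% to 8.84%) already lies apart from that of untreated replicate 2. In replicate 2 the ElavWT and FneWT shares lay between the untreated values. Replicates 1 were above replicates 2 in every group. Shares were also larger in all 6 transfected libraries for RpS19b beside RpS19a (0.998% and 0.507% untreated, 1.83% to 2.19% in the transfected replicates 1 and 0.662% to 0.878% in the replicates 2) and for RpL24-like beside RpL24 (17.5% and 5.25% untreated, 21.6% to 23.0% and 6.78% to 9.90%). This did not hold for RpL7-like beside RpL7, at 2.59% and 3.93% untreated and 5.25% to 6.16% in the transfected replicates 1. In replicate 2 RpL7-like was at 4.46% with Elav but at 3.51% with Fne and 3.86% with Rbp9, below untreated cells. RpL24-like and RpL7-like resemble RpL24 and RpL7 and need not be copies of them. For RpS19b the intervals of FneWT replicate 2 and untreated replicate 2 overlap. RpS15Ab gave 10.1% and 15.3% of its pair in untreated cells and 14.8% to 17.4% in transfected ones. RpS14b gave 19.5% and 10.7% of its pair in untreated cells and 7.18% to 25.3% in transfected ones, with the replicates 1 above the replicates 2. The copies of RpS14 and of RpS15A are nearly identical, so the split of reads between them is uncertain.

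RpL24-like and RpL7-like resemble ribosomal proteins, and their yeast counterparts Rlp24 and Rlp7 are assembly factors of the 60S subunit. RpL24-like measured 345 and 298 CPM untreated, 295 and 462 with Elav, 269 and 299 with Fne, and 241 and 319.9 with Rbp9. RpL7-like measured 202 and 245 CPM untreated, 223 and 309.9 with Elav, 184 and 183 with Fne, and 187 and 234 with Rbp9. Neither passed in any group: their changes were -0.04 ± 0.31, adjusted p = 0.714 and -0.01 ± 0.29, adjusted p = 0.637 in ElavWT, -0.46 ± 0.31, adjusted p = 0.726 and -0.56 ± 0.29, adjusted p = 0.536 in FneWT, and -0.62 ± 0.31, adjusted p = 0.676 and -0.50 ± 0.29, adjusted p = 0.862 in Rbp9WT. In the comparison within replicate 1, where the median main gene was at -1.17, these were at -0.37 ± 0.31 and -0.03 ± 0.32 unshifted.

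RpS28-like was the only ribosomal protein gene called higher than in untreated cells in the fits above. It passed the filter on low values only through the transfected libraries, where it had to be high. Those calls are thus no support for a change. It had 0 reads in both untreated libraries, 15 and 4 with Elav, 10 and 18 with Fne, and 14 and 7 with Rbp9. Every transfected library was above both untreated ones. Against 3 reads in the untreated library of the same number, it was at least 10.1-fold and 1.93-fold higher with Elav, 5.96-fold and 7.43-fold with Fne, and 7.67-fold and 3.16-fold with Rbp9. The gene lies within CG3769 on the same strand, so its reads could belong to that gene.

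Of the other genes of ribosome production, 40 of rRNA synthesis and ribosome assembly were tested, and their median change less that of all genes was -0.27 in ElavWT, -0.22 in FneWT and -0.34 in Rbp9WT. In limma with the replicate number, 1 of the 40 rose in ElavWT, 1 fell in FneWT and none moved in Rbp9WT, where the shares of all genes called are those given above. Ns3, a GTPase of late 60S maturation, measured 4.03 and 23.8 CPM untreated, 13.4 and 51.3 with Elav, 8.45 and 24.0 with Fne, and 7.65 and 29.1 with Rbp9. Its ElavWT and untreated libraries overlap, and it rose in ElavWT by 1.30 unshifted (adjusted p = 0.0135). Non1, a GTPase of 60S assembly, measured 687 and 569 CPM untreated, 503 and 669.9 with Elav, 376 and 285 with Fne, and 373 and 496 with Rbp9 and fell by 0.93 unshifted in FneWT (adjusted p = 0.0491), with both FneWT libraries below both untreated ones. Of 24 regulators of ribosomal protein genes and of growth, none passed in ElavWT, 2 rose and 1 fell in FneWT, and 3 rose in Rbp9WT. The rises were 8.33% of the list in FneWT and 12.5% in Rbp9WT, below the 15.1% and 17.7% of all genes called higher. In FneWT 1.94% of all genes were called lower. Myc, the transcription factor that raises ribosome production, measured 423 and 399.8 CPM untreated, 971 and 583 with Elav, 1138 and 647 with Fne, and 1420.0 and 791 with Rbp9. It was above both untreated libraries in every transfected library, and rose by 1.06 unshifted in FneWT (adjusted p = 0.0285) and by 1.36 in Rbp9WT (adjusted p = 0.00519). gig, which codes for the TOR inhibitor Tsc2, measured 14.2 and 19.4 CPM untreated, 35.5 and 25.6 with Elav, 44.6 and 24.4 with Fne, and 39.9 and 34.5 with Rbp9. It rose by 0.95 unshifted in FneWT (adjusted p = 0.0428) and by 1.12 in Rbp9WT (adjusted p = 0.0172). Gcn2, a kinase that lowers translation when amino acids are short, rose by 1.09 unshifted in Rbp9WT (adjusted p = 0.0208). Irbp18, a C/EBP-family partner of Xrp1, measured 32.9 and 23.5 CPM untreated, 14.0 and 16.0 with Elav, 10.4 and 11.8 with Fne, and 10.8 and 19.1 with Rbp9 and fell by 1.25 unshifted in FneWT (adjusted p = 0.0134).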

How the data were processed

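The authors deposited a table of CPM (reads scaled to a common total per library) for each gene for the 8 libraries of untreated, ElavWT, FneWT and Rbp9WT cells. Per the submitters' processing notes the build was dm6. How reads were aligned and counted, and whether by strand, is not stated there. The 4 further libraries, of proteins mutated in the RRM, were not used here. Each library started from 2 ug of RNA, per the labels. Groups and replicate numbers come from the sample titles.

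Of 13777 gene identifiers, 13684 were matched to a symbol and 93 were not. Gene positions and overlaps come from the Ensembl annotation of BDGP6, and no sequence was used. The CPM worth of 1 read was recovered from the spacing of each library's values. This made 100% of values whole reads within 0.01 of a read, which gave the depths (4694825 to 14391952 reads).

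The 9114 genes that averaged 1 CPM or more (among them 87 of 92 ribosomal protein genes) were tested on log2(CPM + 1). limma 3.58.1 (trend and robust empirical Bayes, R 4.3.3) was fitted to the 8 libraries with a term for group alone (4 residual degrees of freedom). The threshold was a Benjamini-Hochberg adjusted p of 0.05 over all tested genes. A second fit added the replicate number (3 residual degrees of freedom). Deviations from group means correlated at 0.55 to 0.869 between same-numbered libraries in the 6 pairs of groups, so the numbers were taken to pair the samples. The pairing rests on these data, since no label says what a number shares. The recovered reads were tested with edgeR 4.0.16 and with DESeq2 1.42.0. They have the unit of counts by this recovery and not as the authors deposited them. Of these fits only limma was tried on simulated data, for ElavWT against untreated cells. The simulated replicate numbers differed alike in all groups, so a replicate difference that varies between groups was not covered. The comparison of transfected with untreated libraries within a replicate number was chosen after seeing the data.

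The members and gene lists were chosen with earlier results of these data known, so no test over the list was made and no p was adjusted over it alone. Named ribosomal protein genes are up to 10 per comparison by size of change among those that passed, the 5 highest and 5 lowest main genes by untreated mean, the 3 highest and 3 lowest by change in each comparison with untreated cells (given by level or change where described), every suffix gene, and RpLP0, RpLP1, RpLP2, sta, RpS27A, RpL40 and RpS6. RpL3, RpL22, RpL39, RpL27A, RpL35A and the genes listed as not called within replicate 1 were named after their values were seen. Some genes that meet this rule are not reported here. Other genes named are list members that passed, up to 4 per comparison. Tables and figures used matplotlib 3.10.9, scipy 1.17.1, numpy 2.4.6 and pandas 2.3.3 under Python 3.11.15. Alternatives were another scaling, pseudocount and filter, CPM without rRNA-named genes, the count tools, and leaving out each library.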

Additional observations from a re-analysis of the deposited data

How the results depend on the processing

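With group as the only term, counts of ribosomal protein genes called stayed at 0 in all 6 comparisons under every scaling, filter, pseudocount and left-out library, and in edgeR. The exception was DESeq2, with 1 in FneWT. The replicate block, the replicate number as a further term, gave 1 gene in ElavWT, 9 in FneWT and 12 in Rbp9WT against untreated cells, higher and lower together, and changed no call between proteins. With the block, median-ratio scaling gave 2, 22 and 38, CPM without rRNA-named genes 0, 5 and 14, no filter on low values 0, 3 and 2 (tried after seeing the data), edgeR 9, 42 and 55, and DESeq2 34, 69 and 80. With each library left out, the block fit gave 0 to 59, 0 to 74 and 0 to 72, and 0 to 1 for FneWT against ElavWT. Without ElavWT replicate 1 or 2 it gave 11 and 10 in FneWT and 13 and 11 in Rbp9WT, without either Rbp9WT library 4 in FneWT, and without either FneWT library 2 in Rbp9WT. Shares of all genes called lower are given above for the block, edgeR, DESeq2, median-ratio scaling and the fits without an untreated library. For the other settings no such share is given. Their counts thus cannot be read as particular to ribosomal protein genes. The cause of these differences was not tested.

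The median change of main genes less that of all genes ranged over left-out libraries from -1.69 to 0.043 in ElavWT, -2.06 to -0.10 in FneWT and -2.14 to -0.32 in Rbp9WT against untreated cells. Between proteins it ranged from -1.26 to 0.77 in FneWT against ElavWT, -1.32 to 0.46 in Rbp9WT against ElavWT and -1.19 to 0.81 in Rbp9WT against FneWT, all with group as the only term. The sign thus turned in each, though it was negative in both same-numbered pairs of every comparison. These ranges follow which replicate number is left out. The mean untreated share of reads was 27.8% without rRNA-named genes and 21.4% for main genes alone. Counting error of the shares (at most 0.0387 percentage points) was far below the spread between libraries. The 7 suffix genes below 10 CPM rest on few reads.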
